A study of Neurospora crassa with 54 samples.

Results

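The comparison described here set mycelium of a Neurospora crassa strain lacking both the histone variant gene hH2Az and the histone methyltransferase gene set-7 against mycelium of a wild type. Its members were the 3 RNA-seq libraries labelled ∆hH2Az;∆set-7 and the 3 labelled Wild type, which are 6 of the 54 samples of the series, chosen by their labels alone. They were described across all 10398 genes of the deposited count table, of which 8372 had enough reads to be tested. The 3 libraries of each single deletion, ∆hH2Az and ∆set-7, served as points of reference, and the 42 chromatin samples were not analysed here. Each strain carried the named deletion or deletions and no treatment, and the labels name no further allele. Every culture stood in constant light at 30 °C for 12 h, in VMM (the labels' name for the medium) with 2% glucose, and a stranded kit for poly(A) RNA gave the libraries. The descriptions carry 1 strain code per group, so the replicates are separate cultures of 1 isolate as far as the labels show. A difference between strains can therefore hold differences between isolates as well as the deletions, and the p-values measure the spread between these cultures.

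Nucleosomes that hold H2A.Z in place of H2A are placed by the SWR1 complex, mostly beside gene starts, and their loss is known to change transcription of both active and silent genes. SET-7 is the catalytic subunit of Polycomb repressive complex 2 in Neurospora, which methylates lysine 27 of histone H3. In this fungus the mark covers domains of silent genes, many of them near the chromosome ends. The study asked whether H2A.Z is needed for that mark, and the strain lacking both genes shows expression when neither is present.

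Library totals ranged from 13738376 to 16139440 counted reads in ∆hH2Az;∆set-7 and from 13581416 to 16913628 in wild type. The levels below are CPM, a gene's share of the counted reads after scaling by the trimmed mean of M values (TMM). Replicates 1 and 2 of every strain carry the tag 920 in their descriptions and replicate 3 another tag, and their meaning is not stated. In log2 CPM, ∆hH2Az;∆set-7 replicates 1 and 2 correlated at 0.991 across genes, and each correlated with replicate 3 at 0.934 and 0.936. For wild type the same values were 0.993, 0.970 and 0.977. In ∆hH2Az;∆set-7, 86 genes were at least 8 times as high in replicate 3 as in the mean of replicates 1 and 2, and in wild type 0 genes were. In bulk RNA, fewer cells with a transcript and less of it per cell cannot be told apart.

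Both deleted genes fell, and neither fell to 0 counts. set-7 (NCU07496, chromosome I from 408524 to 415263 of NC12, minus strand) had 8.35, 9.62 and 7.85 CPM in wild type and 5.16, 3.17 and 3.13 CPM in ∆hH2Az;∆set-7. Its values did not overlap, and the log2 fold change came to -1.17 with an SE of 0.279 (edgeR adjusted p = 0.00885). The ∆set-7 libraries averaged 3.37 CPM and the ∆hH2Az libraries 9.89 CPM. On chromosome II, hH2Az (NCU05347, 1387651 to 1392823, read from the minus strand) had 65.6, 76.9 and 74.9 CPM in wild type and 37.8, 35.2 and 23.1 CPM in ∆hH2Az;∆set-7. The groups did not overlap, and the gene fell by 1.18 in log2 with an SE of 0.273 (edgeR adjusted p = 0.00801). The annotated hH2Az gene overlaps NCU05345 and NCU05346. Counts are per whole gene, so which part of a deleted locus the remaining reads cover is not shown.

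The 3 annotated genes on each side of a deletion were chosen by position, outside the rule for named genes. Only 3 of these neighbours are described here, all called higher. The others are not described, so these 3 do not show how the neighbours behaved in general. NCU05346, inside the hH2Az locus, had 0.169, 0.308 and 0.173 CPM in wild type and 2.12, 2.86 and 2.22 CPM in ∆hH2Az;∆set-7. Its log2 fold change was 3.44 with an SE of 0.565 (edgeR adjusted p = 0.000687), and it averaged 3.41 CPM in ∆hH2Az. Beside set-7, NCU07497 had 3.46, 3.85 and 1.96 CPM in wild type and 20.5, 21.3 and 12.6 CPM in ∆hH2Az;∆set-7 (log2 fold change 2.56, SE 0.322, edgeR adjusted p = 0.000246). Its mean was 15.5 CPM in ∆set-7 and 0.91 CPM in ∆hH2Az. mus-40 (NCU07498), a neighbour of set-7 from the DNA repair list, had 20.1, 18.6 and 21.7 CPM in wild type and 50.9, 56.7 and 36.1 CPM in ∆hH2Az;∆set-7. It rose by 1.25 in log2 with an SE of 0.243 (edgeR adjusted p = 0.00298), while it averaged 20.6 CPM in ∆set-7 and 17.5 CPM in ∆hH2Az.

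Of the 8372 genes tested, 2551 differed between ∆hH2Az;∆set-7 and wild type at an adjusted p under 0.05, which is 30.5% of them. Of these, 1282 were higher (15.3%) and 1269 were lower (15.2%). The rises were the larger changes: their median was 1.39 on the log2 scale against 1.24 in size for the falls, 932 against 866 reached a log2 change of 1 (11.1% and 10.3% of tested genes), 367 against 217 reached a log2 change of 2, and 160 against 46 reached 3. The median log2 fold change over all tested genes was 0.02. With upper-quartile scaling that median moved to -0.07, and the split became 1114 higher and 1445 lower. Wild-type and ∆hH2Az;∆set-7 libraries did not overlap for 98.5% of the rises and 97.3% of the falls, beside 46.4% of all tested genes. Between the 2 replicate 3 libraries alone, 99.1% of the rises and 98.3% of the falls had the same sign, beside 79.6% of all tested genes. The libraries of these checks, and those tagged 920, also made the calls, so part of such agreement comes with the selection. In the 8 libraries tagged 920 alone the same test called 4578 genes (54.4% of those tested there, 27.2% higher and 27.2% lower), among them 2452 of the 2551 in the same direction. Without wild-type replicate 2 it called 1618.

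Set against the single deletions, which share libraries with this comparison, the changed genes had these values. The 1282 genes that rose had a median log2 fold change of 1.39 in ∆hH2Az;∆set-7, 1.24 in ∆hH2Az and 0.11 in ∆set-7, each against the same wild-type libraries. For the 1269 genes that fell the medians were -1.24, -1.07 and -0.10. A direct test of ∆hH2Az;∆set-7 against ∆hH2Az called 121 genes (1.45%), with 94 higher (1.12%) and 27 lower (0.323%). That count depended on the libraries used: it was 2478 in the libraries tagged 920, 292 with DESeq2 and 48 in the 6 libraries of these strains alone. It was 473 without ∆hH2Az replicate 3, 362 without ∆hH2Az;∆set-7 replicate 3, and 62, 73, 74 and 78 without ∆hH2Az replicate 1 or 2 or ∆hH2Az;∆set-7 replicate 1 or 2. The test against ∆set-7 called 2486 genes (29.7%), with 1227 higher (14.7%) and 1259 lower (15%), or 1643 genes without ∆set-7 replicate 1 and 4797 in the libraries tagged 920. Each deletion alone against wild type gave 2604 calls in ∆hH2Az (31.1%, with 16.2% higher and 14.9% lower) and 86 in ∆set-7 (1.03%, with 1.02% higher and 0.0119% lower).

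The 12 largest falls were taken among called genes of at least 1 CPM over the 12 libraries, with groups that did not overlap. A replicate 3 difference of at least 1 in log2 in the same direction was also required, so those features chose them. All had reads in every wild-type library. NCU06912 (chromosome VII from 747459 to 749114) had 134.2, 151.8 and 194.5 CPM in wild type and 4.12, 3.38 and 3.13 CPM in ∆hH2Az;∆set-7. Its log2 fold change was -5.49 (SE 0.3, edgeR adjusted p = 4.05e-06). Its neighbour NCU06911 (from 744988 to 746056) went from 144.4, 198.5 and 149.1 CPM to 5.70, 4.71 and 1.74 CPM, or -5.33 in log2 with an SE of 0.344 (edgeR adjusted p = 1.06e-05). In both genes the lowest wild-type library was more than 20 times the highest ∆hH2Az;∆set-7 library. The gene table gives neither a symbol.

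A second adjacent pair among the largest falls lies on chromosome I. NCU09210 (from 5849601 to 5852150) had 208.5, 297.5 and 562.9 CPM in wild type and 18.6, 18.5 and 3.61 CPM in ∆hH2Az;∆set-7, and fell by 4.71 in log2 with an SE of 0.665 (edgeR adjusted p = 0.00103). NCU09209 (from 5845361 to 5847904) had 86.0, 119.7 and 480.9 CPM in wild type and 15.3, 16.9 and 7.43 CPM in ∆hH2Az;∆set-7 (log2 fold change -4.11, SE 0.699, edgeR adjusted p = 0.00262). Replicate 3 was the highest wild-type library and the lowest ∆hH2Az;∆set-7 library for both. In all, 5 genes went from at least 10 CPM on average to under 1 CPM: NCU07088, NCU16555, NCU01861, NCU01371 and app (NCU04533), the last 2 named after their values were seen. The call of app was lost without wild-type replicate 3. In 3 of the 5 the mean of ∆hH2Az;∆set-7 replicates 1 and 2 alone was under 1 CPM. NCU07088 had 25.8, 27.4 and 16.2 CPM in wild type and 0.485, 0.37 and 0.903 CPM in ∆hH2Az;∆set-7 (log2 fold change -5.31, SE 0.458, edgeR adjusted p = 2.11e-05). None of these 5 lies within 200 kb of a chromosome end.

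All 12 of the largest falls were also lower than in ∆set-7 by the direct test, beside 15% of all tested genes. Of the 12, 0 differed from ∆hH2Az, which is near the 1.45% of all tested genes called in that test. Of all 1269 falls, 982 were lower than in ∆set-7. Against ∆hH2Az, 11 of the 1269 were lower and 6 higher, beside 0.323% and 1.12% of all tested genes. The ∆hH2Az;∆set-7 libraries of these tests also chose the 12. NCU06912 averaged 199.5 CPM in ∆set-7 and 7.09 CPM in ∆hH2Az. NCU07088 averaged 35.3 and 2.07 CPM in the same strains. Every one of the 12 kept its call when any 1 library of the compared groups was left out.

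**Figure D1:**
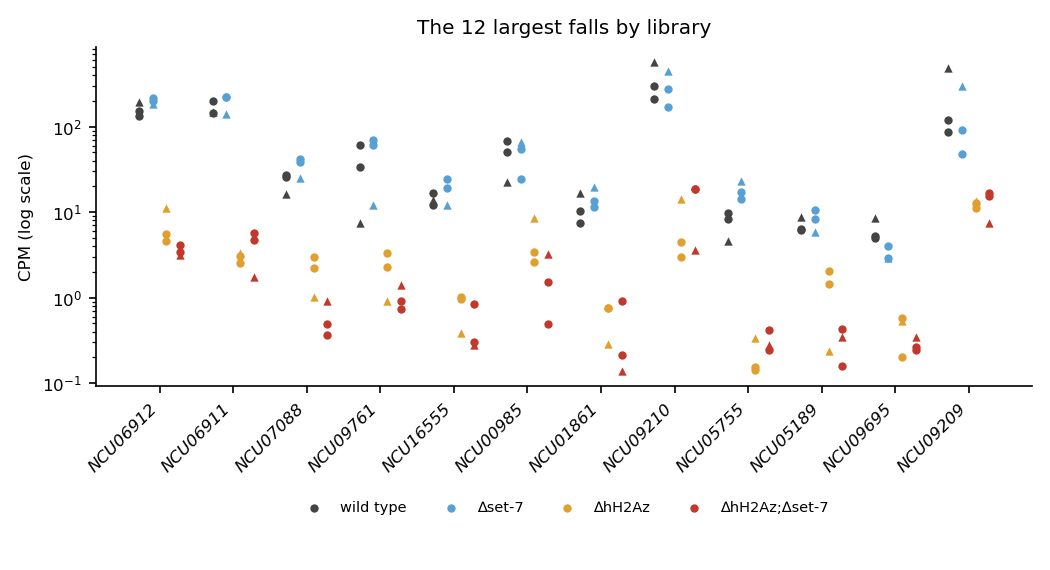
CPM on a log scale for the 12 genes with the largest falls, with 1 point per library, circles for replicates 1 and 2 and triangles for replicate 3. In each gene the red ∆hH2Az;∆set-7 points lie below all wild-type and ∆set-7 points, and NCU06912 goes from 134.2 or more in wild type to 4.12 or less.

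Of the 12 largest rises, chosen by the same features, 7 lie within 50 kb of a chromosome end, where 171 of the 8372 tested genes lie. In wild type 7 of the 12 averaged under 1 CPM, and the other five averaged between 1.81 and 20.4 CPM. NCU07152 (chromosome V from 6411400 to 6412219) had 0 reads in all 3 wild-type libraries and 181.4, 144.0 and 89.8 CPM in ∆hH2Az;∆set-7. Counting 3 reads over the wild-type group as its floor, it was at least 1978-fold higher (edgeR adjusted p = 2.19e-06). Its means were 18.6 CPM in ∆set-7 and 0.0819 CPM in ∆hH2Az, and ∆hH2Az;∆set-7 was above both (edgeR adjusted p = 9e-05 and 1.39e-06). NCU07150 (from 6414593 to 6416401) had 0.675, 0 and 0.289 CPM in wild type and 234.0, 183.2 and 120.4 CPM in ∆hH2Az;∆set-7 (log2 fold change 9.14, SE 0.858, edgeR adjusted p = 2.73e-05). Its ∆set-7 mean of 161.4 CPM was not told apart from the double strain (edgeR adjusted p = 0.867). NCU07151, between them, had 1 wild-type read and was 264.1-fold higher by pooled reads, with a 95% exact interval of 47.1 to 10466 for counting error.

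Away from the ends, NCU07249 (chromosome V from 6081633 to 6083258) had 0.0844, 0.154 and 0.0577 CPM in wild type and 16.9, 15.4 and 27.2 CPM in ∆hH2Az;∆set-7. Its log2 fold change was 7.59 (SE 0.781, edgeR adjusted p = 1.24e-05), and its means were 20.2 CPM in ∆set-7 and 0.375 CPM in ∆hH2Az. NCU09939 (chromosome IV from 5250089 to 5250952) followed another order. It had 1 wild-type read and 8.73, 6.82 and 9.38 CPM in ∆hH2Az;∆set-7, a pooled ratio of 345.4 with a 95% exact interval of 61.7 to 13676 for counting error. Its mean was 4.50 CPM in ∆hH2Az and 0.49 CPM in ∆set-7, and the double strain was above ∆set-7 (edgeR adjusted p = 4.47e-05) but not told apart from ∆hH2Az (edgeR adjusted p = 0.328).

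In 7 of the 12 largest rises, ∆hH2Az;∆set-7 replicate 3 was at least 8 times the mean of replicates 1 and 2. The rule that chose the 12 required a rise between the replicate 3 libraries. NCU14148 (chromosome VII, overlapping NCU08130) had 2.36, 2.31 and 0.751 CPM in wild type and 20.3, 16.4 and 1410 CPM in ∆hH2Az;∆set-7. In ∆hH2Az the same gene had 3851, 3110 and 1.97 CPM, so there replicate 3 was the low library. NCU05122 (chromosome VI) had 1.09, 0.582 and 126.3 CPM in ∆hH2Az;∆set-7 and 107.3, 86.1 and 0.192 CPM in ∆hH2Az, with at most 0.346 CPM in wild type. Both genes were called higher (edgeR adjusted p = 0.0264 and 0.0347), and both calls were lost without ∆hH2Az;∆set-7 replicate 3, without any 1 wild-type library, with the tag or the replicate number as a block, and with limma-voom. NCU10040 (chromosome IV, 11.3 kb from the right end) kept its call in every such refit but was not called with DESeq2. It had 20.3, 23.5 and 17.3 CPM in wild type and 504.2, 355.7 and 10585 CPM in ∆hH2Az;∆set-7.

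A group of 25 genes went from under 1 CPM on average in wild type to at least 10 CPM in ∆hH2Az;∆set-7. Of these, 9 lie within 50 kb of an end, where 171 of the 8372 tested genes lie. In all, 690 tested genes averaged under 1 CPM in wild type, and 193 of them were called higher. A gene that low in wild type can enter the test through the strains where it is higher, so the filter favours rises among such genes. How many of the 690 lie near an end was not counted. In 15 of the 25 the mean of ∆hH2Az;∆set-7 replicates 1 and 2 alone reached 10 CPM. Several of the 25, named here after their values were seen, were at wild-type levels or below in ∆hH2Az. NCU09634 (chromosome II, the outermost gene of a run of rises that starts at 8927) had 1.10, 0.539 and 0.808 CPM in wild type and 27.8, 26.96 and 40.6 CPM in ∆hH2Az;∆set-7, with means of 10.6 CPM in ∆set-7 and 0.0979 CPM in ∆hH2Az. NCU08756 (chromosome III, 20.4 kb) had 0.928, 0.308 and 0.173 CPM in wild type and 27.6, 32.5 and 61.8 CPM in ∆hH2Az;∆set-7, with means of 7.43 CPM in ∆set-7 and 0.116 CPM in ∆hH2Az. NCU05903 (chromosome VII, 0.6 kb) had 0.759, 0.616 and 0.346 CPM in wild type and 27.4, 18.9 and 36.0 CPM in ∆hH2Az;∆set-7, with means of 11.9 and 0.181 CPM in the same single strains. For these 3 genes ∆hH2Az;∆set-7 was higher than ∆set-7 (edgeR adjusted p = 0.00106, 0.00439 and 0.0217) and higher than ∆hH2Az (edgeR adjusted p = 6.94e-07, 7.31e-05 and 6.95e-06).

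Within 200 kb of a chromosome end 25.4% of the 622 tested genes were called higher in ∆hH2Az;∆set-7 than in wild type and 15% lower, beside 15.3% and 15.2% of all tested genes. The narrower windows that follow were chosen after seeing the data. Within 25 kb of an end, 51 of 83 tested genes were called higher (61.4%) and 7 lower (8.43%), and their median log2 fold change was 2.06. From 25 to 50 kb the share called higher was 34.1% of 88 genes, from 50 to 100 kb it was 18.8%, and from 100 to 200 kb it was 16.1%. Together, 81 of the 171 tested genes within 50 kb rose and 19 fell. The table holds 201 genes within 50 kb, and a gene silent in wild type entered the test through the strains in which it had reads. The 81 became 65 without ∆hH2Az;∆set-7 replicate 3 and 96 in the libraries tagged 920, and lay between 63 and 77 when any 1 library was left out. The 19 falls became 7 without wild-type replicate 2, 11 to 13 without any 1 of the other libraries compared, and 29 in the libraries tagged 920. From 200 to 500 kb the shares called higher were again above the background, at 21.6% of 278 genes and 21% of 505, where 32 and 63 genes were lower.

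Genes near the ends also set the double strain apart from ∆hH2Az. Of the 94 genes higher in ∆hH2Az;∆set-7 than in ∆hH2Az, 51 lay within 50 kb of an end, where 0 genes were lower. That is 29.8% of the 171 genes tested there, beside 1.12% of all tested genes, and the median difference there was 0.98 on the log2 scale. Within 25 kb it was 35 of 83 genes (42.2%). Leaving out 1 library gave between 42 and 69 such genes within 50 kb, the 6 libraries of the 2 strains alone gave 30, and the libraries tagged 920 gave 98. Against ∆set-7, the 171 genes moved both ways, with 34 higher in ∆hH2Az;∆set-7 (19.9%) and 25 lower (14.6%), beside 14.7% and 15% of all tested genes. Each single deletion also differed from wild type there. In ∆set-7, 32 of the 171 genes were higher (18.7%, beside 1.02% of all tested genes) and 0 lower, with a median of 0.71. In ∆hH2Az, 27 were higher and 51 lower (15.8% and 29.8%, beside 16.2% and 14.9%), with a median of -0.30. Within 25 kb the medians against wild type were 1.46 in ∆set-7 and -0.63 in ∆hH2Az.

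**Figure D2:**
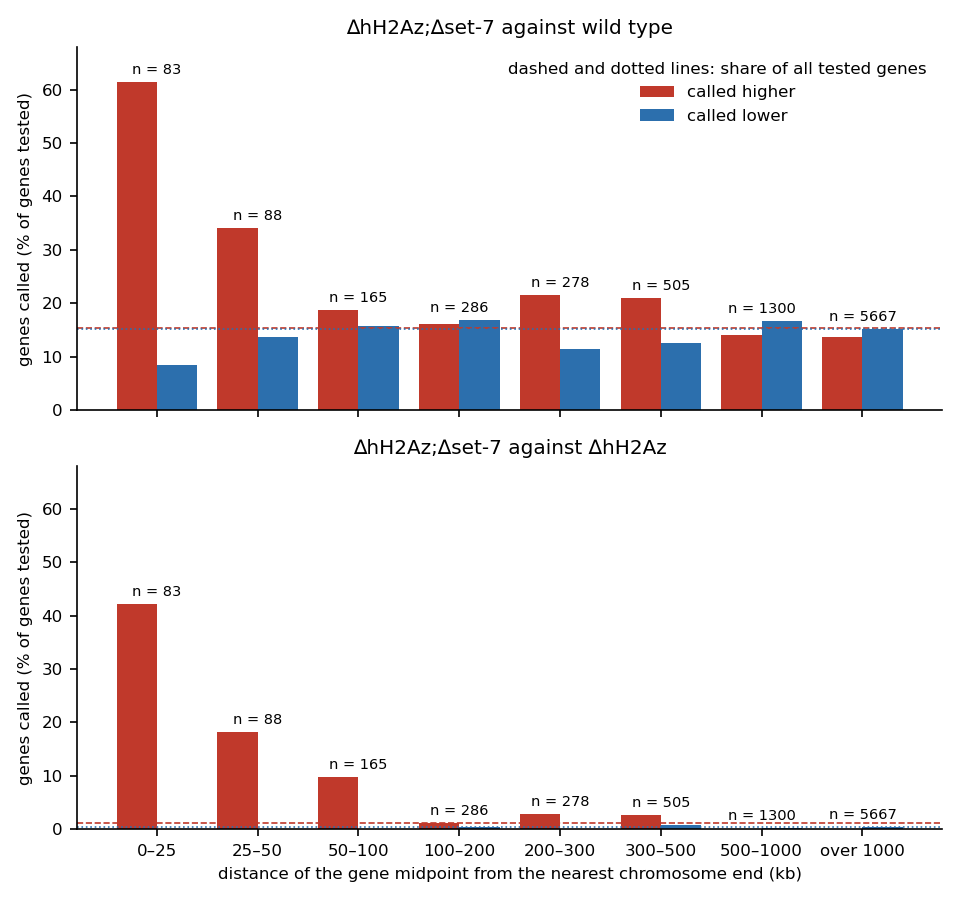
Share of tested genes called higher (red) or lower (blue) by distance of the gene from the nearest chromosome end in kb, for ∆hH2Az;∆set-7 against wild type and against ∆hH2Az, with the share over all tested genes as dashed and dotted lines. The red bars are tallest within 25 kb, at 61.4% against wild type and 42.2% against ∆hH2Az.

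The 14 chromosome ends differed from one another. On the left of chromosome II, 13 of 15 tested genes within 50 kb rose, with a median log2 fold change of 2.50. The right end of chromosome I had 4 of 5 (median 2.47) and the right end of chromosome III 10 of 16 (median 1.85). At the right end of chromosome VII 1 of 9 genes rose and 3 fell, and the median was -0.81. There the median was -2.14 in ∆hH2Az and 0.24 in ∆set-7 against the same wild type. At the left end of chromosome VII 4 of 16 genes rose.

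The left end of chromosome IV was set apart by its replicates. There 8 of 10 tested genes rose, with a median of 6.08, which was 1.69 among replicates 1 and 2 and 7.19 between the replicate 3 libraries. These 8 genes, from NCU10285 at 1667 to NCU10572 at 33628, formed the longest unbroken run of rises in the genome. NCU10285 had 1.43, 0.77 and 0.404 CPM in wild type and 10.1, 8.56 and 560.2 CPM in ∆hH2Az;∆set-7. In ∆hH2Az it had 42.2, 40.8 and 0.336 CPM, and in ∆set-7 19.8, 19.3 and 16.8 CPM. NCU09639 had 9.11, 6.70 and 3.58 CPM in wild type, 17.3, 15.7 and 2515 CPM in ∆hH2Az;∆set-7 and 298.6, 285.6 and 7.20 CPM in ∆hH2Az. Across the run, ∆hH2Az;∆set-7 replicate 3 was the highest of the 12 libraries, and ∆hH2Az replicate 3 lay below ∆hH2Az replicates 1 and 2 at every gene. Without ∆hH2Az;∆set-7 replicate 3, 5 of the 8 lost their call, among them NCU10285 and NCU10572, whose calls were also lost with the replicate number as a block. NCU09635, NCU09637 and NCU09640 kept their calls in every refit that left out 1 library. However, NCU09635 was not called with DESeq2 or with limma-voom.

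The second run, of 7 genes from NCU17053 to NCU07147 at the right end of chromosome V (from 6409845 to 6423410), was above every wild-type library in all 3 double-deletion cultures. It holds NCU07152, NCU07151 and NCU07150, described above. NCU17053 had 1.94, 1.54 and 2.02 CPM in wild type and 116.6, 75.1 and 87.1 CPM in ∆hH2Az;∆set-7 (log2 fold change 5.65, SE 0.557, edgeR adjusted p = 9.44e-05), above its means of 20.4 CPM in ∆set-7 and 11.2 CPM in ∆hH2Az. Nearer the end of the chromosome the order of the strains changed. NCU07148 had 0.506, 0.077 and 0.231 CPM in wild type and 2.37, 1.80 and 5.28 CPM in ∆hH2Az;∆set-7, but 33.3 CPM on average in ∆set-7. NCU07147 and NCU07149 likewise rose against wild type (log2 fold changes 6.06 and 2.10) and were lower than in ∆set-7, where they averaged 55.4 and 55.0 CPM (edgeR adjusted p = 0.00486 and 0.00175). All 7 genes were higher than in ∆hH2Az (largest edgeR adjusted p = 0.0154).

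**Figure D3:**
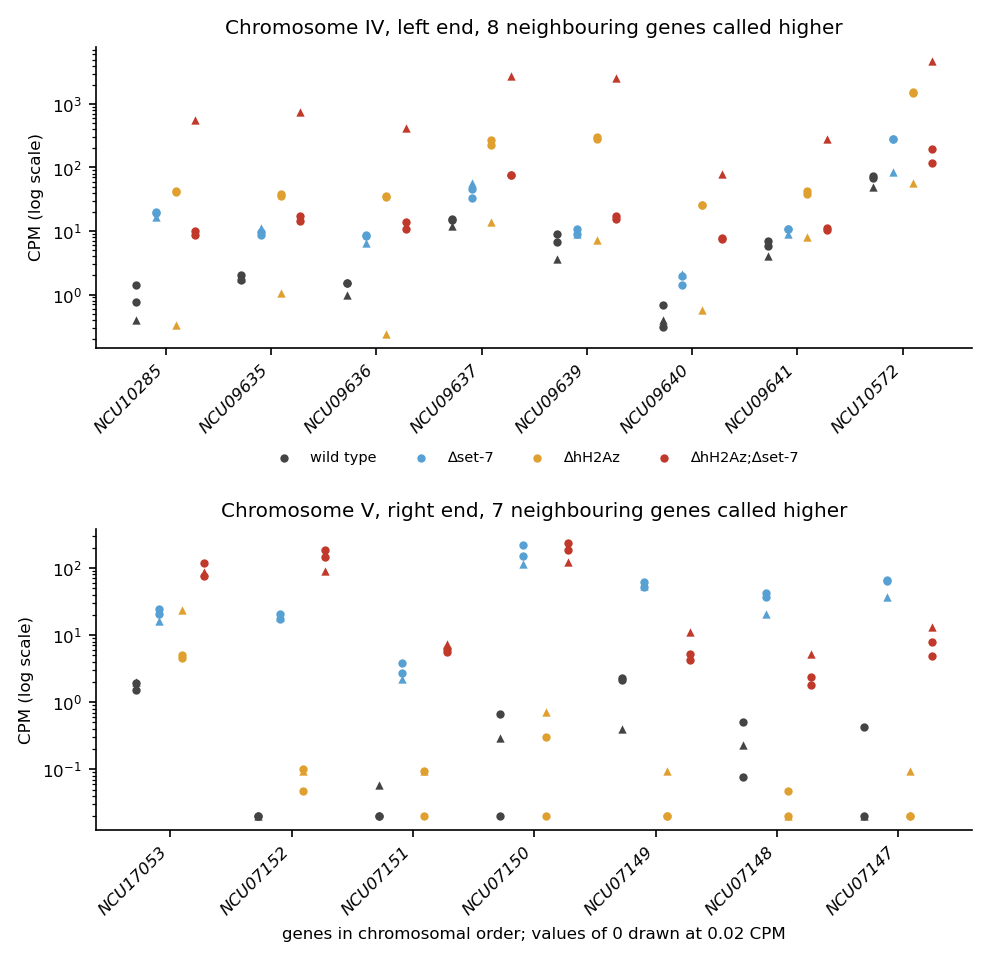
CPM on a log scale, 1 point per library, for the 8 genes of the run at the left end of chromosome IV and the 7 genes at the right end of chromosome V; circles are replicates 1 and 2 and triangles replicate 3. In the upper panel the red triangle, ∆hH2Az;∆set-7 replicate 3, is the highest point of every gene, and in the lower panel every red point lies above the wild-type points of its gene.

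Runs of at least 4 consecutive tested genes called in 1 direction numbered 17 for rises, with 86 genes, and 16 for falls, with 70 genes. Of the runs of rises, 8 lay wholly within 200 kb of an end, and of the runs of falls 3 did. The third run of rises spans 7 genes of chromosome II from NCU09627 to NCU09617, between 26847 and 42883, with log2 fold changes from 1.37 to 4.45. NCU09621 in it had 23.5, 21.9 and 23.7 CPM in wild type and 79.8, 69.1 and 87.7 CPM in ∆hH2Az;∆set-7 (log2 fold change 1.77, SE 0.243, edgeR adjusted p = 0.000413), with means of 42.0 CPM in ∆set-7 and 30.6 CPM in ∆hH2Az. The longest run of falls holds 6 genes of chromosome III from NCU11406 to NCU09503, between 82824 and 103696. NCU09506 in it fell from 8.86, 14.2 and 7.62 CPM to 1.15, 1.00 and 1.46 CPM (log2 fold change -3.09, SE 0.478, edgeR adjusted p = 0.000899), while ∆set-7 averaged 36.9 CPM. Runs of 5 falls lay on chromosome VI from 3353034 to 3369538, with log2 fold changes from -4.62 to -1.40, and on chromosome III from 4699410 to 4723984, from -2.39 to -0.87. In the last run the ∆hH2Az median against wild type was -0.42, beside -1.86 in ∆hH2Az;∆set-7. By the direct test 0 of its genes differed between these 2 strains, beside 1.45% of all tested genes.

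The lists of the mitochondrion and the general list of heat shock and chaperone genes held more rises than falls, and many members did not pass the test. The respiratory chain list (56 tested) had 15 rises and 5 falls, or 26.8% and 8.93%, beside 15.3% and 15.2% of all tested genes. aod-1 (NCU07953), the alternative oxidase that carries electrons from ubiquinol to oxygen past the cytochrome chain, had 190.2, 263.4 and 44.6 CPM in wild type and 7843, 6974 and 4648 CPM in ∆hH2Az;∆set-7. Its log2 fold change was 5.29 (SE 0.543, edgeR adjusted p = 0.000178), and its means were 6463 CPM in ∆hH2Az and 137.2 CPM in ∆set-7. aod-3 (NCU04874), a related oxidase gene, had 3.46, 2.31 and 0.693 CPM in wild type and 28.5, 34.4 and 79.3 CPM in ∆hH2Az;∆set-7 (log2 fold change 4.49, SE 0.68, edgeR adjusted p = 0.00117). ndi-1 (NCU00153), an alternative NADH dehydrogenase, had 5.57, 12.8 and 13.1 CPM in wild type and 59.9, 66.5 and 62.5 CPM in ∆hH2Az;∆set-7. It rose by 2.58 (SE 0.349, edgeR adjusted p = 0.000432), with no overlap of the groups.

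cyc-1 (NCU01808), which encodes cytochrome c, had 931.3, 1191 and 903.0 CPM in wild type and 5707, 4484 and 3867 CPM in ∆hH2Az;∆set-7 (log2 fold change 2.22, SE 0.319, edgeR adjusted p = 0.000588). The falls in the list were led by subunits of complex I, the proton-pumping NADH dehydrogenase. nuo20.9 (NCU01859) had 784.5, 876.1 and 691.4 CPM in wild type and 169.1, 116.5 and 113.7 CPM in ∆hH2Az;∆set-7 (log2 fold change -2.56, SE 0.231, edgeR adjusted p = 2.93e-05). nuo11.5, nuo10.6 and nuo10.5 fell by 1.99, 1.55 and 1.00. The list's median was -0.08, with 27 members above and 29 below 0 and 36 that did not pass the test, and its number of falls was 17 in the libraries tagged 920 and 9 with upper-quartile scaling or with the tag as a block. nuo10.6 overlaps NCU09003.

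Of 24 tested genes for mitochondrial protein import, 13 rose (54.2%) and 0 fell, with a median log2 fold change of 0.70, and 21 had a positive value. When 1 library of the compared groups was left out, 9 to 11 rose and 0 fell. Upper-quartile scaling gave 10 rises and 1 fall. tim22 (NCU03798), of the translocase that inserts carrier proteins, had 30.1, 33.4 and 51.1 CPM in wild type and 143.2, 134.5 and 216.5 CPM in ∆hH2Az;∆set-7 (log2 fold change 2.11, SE 0.277, edgeR adjusted p = 0.000333). tim23, tim50 and tim17, of the translocase for proteins with a presequence, rose by 2.03, 1.96 and 1.96. Of 12 heat shock and chaperone genes, 7 rose (58.3%) and 1 fell (8.33%), with a median of 0.86. That median was 1.13 in the libraries tagged 920 and 0.17 between the replicate 3 libraries. When 1 library of the compared groups was left out, 5 to 7 rose and 1 fell. hsp78 (NCU02630), a mitochondrial chaperone of the ClpB family, had 45.5, 43.9 and 36.5 CPM in wild type and 434.9, 359.7 and 417.2 CPM in ∆hH2Az;∆set-7. It rose by 3.27 in log2 with an SE of 0.191 (edgeR adjusted p = 4.05e-06), the largest change of the list.

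hsp60 (NCU01589), the mitochondrial chaperonin, had 215.4, 305.2 and 433.3 CPM in wild type and 1762, 1605 and 1588 CPM in ∆hH2Az;∆set-7 (log2 fold change 2.38, SE 0.261, edgeR adjusted p = 0.000107). hsp70-5, of the Hsp70 family, rose by 2.43 and hsf-1, the heat shock transcription factor, by 1.89. hsp70-2, of the same Hsp70 family, fell by 1.20. These lists differed from ∆set-7 in like manner, with 9 import genes and 6 chaperone genes higher in ∆hH2Az;∆set-7 and 1 of each lower. Of all tested genes, 14.7% were higher and 15% lower in that test. Against ∆hH2Az, 0 members of either list differed, beside 1.45% of all tested genes. Against wild type, ∆hH2Az alone had 13 import genes and 5 chaperone genes higher, beside 16.2% of all tested genes. ∆set-7 had 0 and 0, which is near its share of 1.02% of all tested genes.

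**Figure D4:**
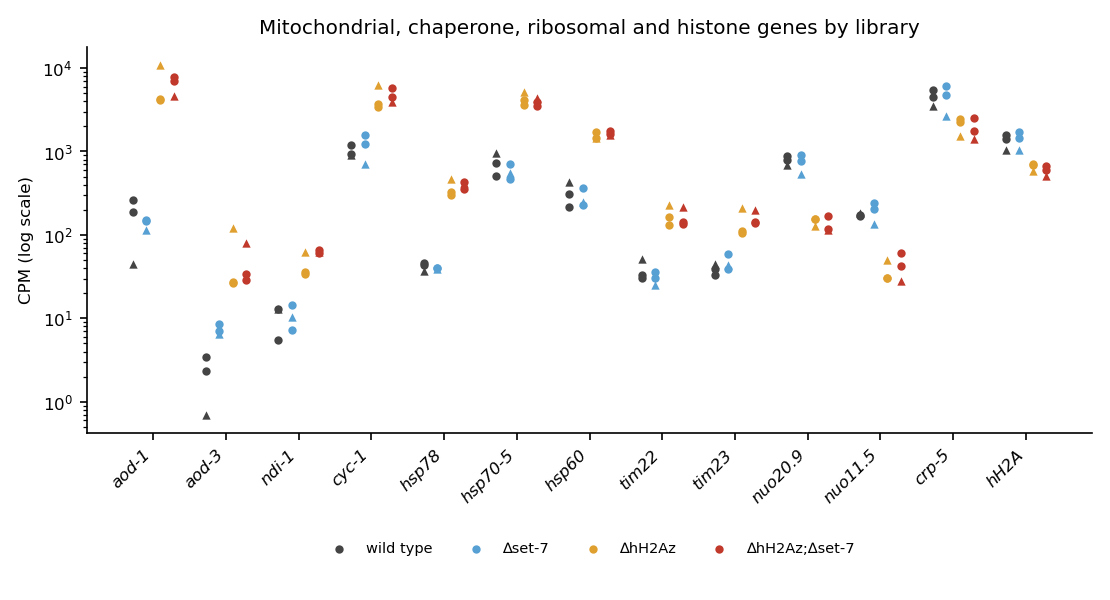
CPM on a log scale for 13 genes of respiration, chaperones, import, ribosomes and histones, 1 point per library, circles for replicates 1 and 2 and triangles for replicate 3. The ∆hH2Az;∆set-7 points (red) lie with the ∆hH2Az points (orange) and apart from wild type and ∆set-7, for hsp78 between 359.7 and 434.9 against 36.5 to 45.5 in wild type.

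The lists of ribosomal proteins, histones and amino acid synthesis held more falls than rises. All 7 tested genes of cytosolic ribosomal proteins with a crp symbol fell, by 1.07 to 1.25 on the log2 scale. crp-5 (NCU04552), 1 of them, had 4508, 5500 and 3534 CPM in wild type and 2504, 1760 and 1411 CPM in ∆hH2Az;∆set-7 (log2 fold change -1.25, SE 0.33, edgeR adjusted p = 0.0153). Without wild-type replicate 2 or without ∆hH2Az;∆set-7 replicate 2, 3 of the 7 passed. Of 9 histone genes, hH2Az included, 7 fell (77.8%, beside 15.2% of all tested genes) and 0 rose (median -0.88). hH2A (NCU02437, overlapping NCU11258) had 1398, 1557 and 1040 CPM in wild type and 675.0, 606.9 and 510.0 CPM in ∆hH2Az;∆set-7 (log2 fold change -1.16, SE 0.23, edgeR adjusted p = 0.00335). hH4-2, hH1 and hH2B fell by 1.15, 0.94 and 0.88.

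Of 59 genes of amino acid synthesis, 31 fell (52.5%) and 2 rose, and 53 had a negative value (median -0.75). Without wild-type replicate 2 the number of falls was 19. met-10 (NCU09311), of methionine synthesis, had 80.8, 78.1 and 98.7 CPM in wild type and 9.10, 8.93 and 11.6 CPM in ∆hH2Az;∆set-7 (log2 fold change -3.12, SE 0.227, edgeR adjusted p = 1.24e-05). his-6, trp-4 and met-8, of histidine, tryptophan and methionine synthesis, fell by 1.90, 1.59 and 1.58. The 2 members that rose are not biosynthetic enzymes: cys-3 is the activator of sulfur genes (log2 fold change 1.20, lost without ∆hH2Az;∆set-7 replicate 3 or wild-type replicate 1) and leu-5 the mitochondrial leucyl-tRNA synthetase (0.80, lost without wild-type replicate 2). Against ∆set-7, 26 members were lower and 3 higher, beside 15% and 14.7% of all tested genes. Against ∆hH2Az 0 differed, beside 1.45% of all tested genes. The median of the list was -0.75 in ∆hH2Az and -0.12 in ∆set-7, each against the same wild type.

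Among 30 proteasome genes 9 fell (30%) and 1 rose (3.33%), beside 15.2% and 15.3% of all tested genes. Their median was -0.25, and the largest fall was -0.82 for rpn-12. In this list 7 fell without ∆hH2Az;∆set-7 replicate 1 but 2 to 4 without any 1 of the other 5 libraries. Among 20 genes of peroxisome formation 7 fell (35%) and 1 rose (5%), with a median of -0.35. Without wild-type replicate 1 or without wild-type replicate 2, 4 fell. pex4, which encodes a ubiquitin-conjugating enzyme, rose by 1.26.

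**Figure D5:**
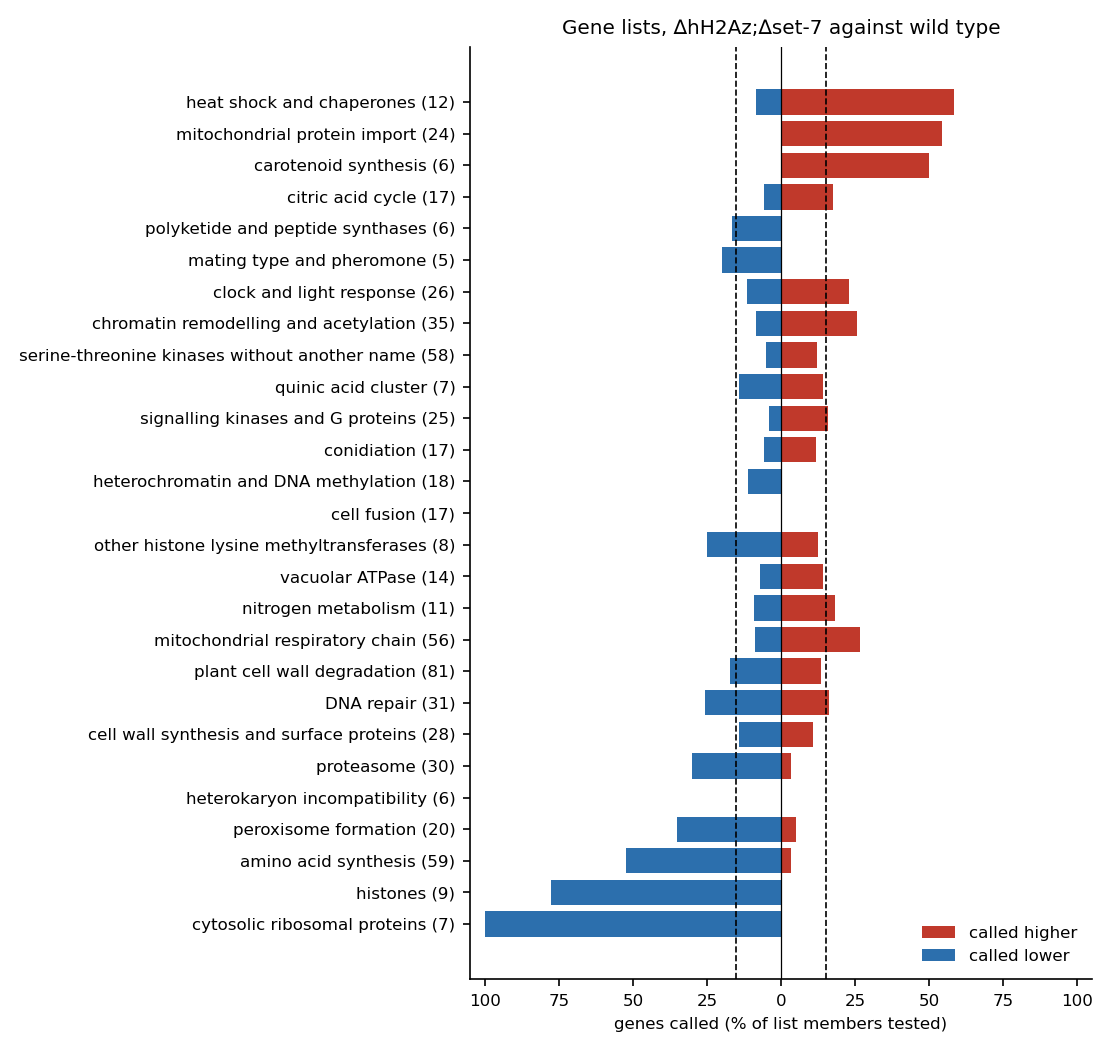
Share of tested members called higher (red, to the right) or lower (blue, to the left) in ∆hH2Az;∆set-7 against wild type for 27 gene lists, with the number tested in parentheses and the shares of all tested genes, 15.3% and 15.2%, as dashed lines. Chaperones, protein import and carotenoid synthesis reach furthest to the right, and ribosomal proteins, histones and amino acid synthesis furthest to the left.

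Several genes that encode chromatin proteins changed. NCU05300 had 2.95, 3.23 and 3.00 CPM in wild type and 0.485, 0.634 and 0.347 CPM in ∆hH2Az;∆set-7. Its log2 fold change was -2.61 (SE 0.373, edgeR adjusted p = 0.000436), and it averaged 0.342 CPM in ∆hH2Az and 2.65 CPM in ∆set-7. NCU05460 had 5.82, 7.31 and 10.5 CPM in wild type and 15.2, 17.2 and 12.99 CPM in ∆hH2Az;∆set-7 (log2 fold change 0.94, SE 0.237, edgeR adjusted p = 0.0121), a call lost without wild-type replicate 1 or 2. Neither locus has a symbol in the gene table. cac-3 (NCU06679), whose deletion the study examined in its chromatin samples, fell by 0.51 (SE 0.158, edgeR adjusted p = 0.0297), with 67.9, 77.0 and 84.1 CPM in wild type and 58.0, 53.8 and 49.0 CPM in ∆hH2Az;∆set-7. Its call was lost without ∆hH2Az;∆set-7 replicate 2 or 3 or wild-type replicate 2 or 3. The gene called swr-1 in the labels and crf1-1 in the gene table (NCU09993) did not pass, with 24.7, 26.6 and 50.5 CPM in wild type and 36.7, 45.2 and 39.7 CPM in ∆hH2Az;∆set-7.

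Among 8 genes with a set symbol, the deleted set-7 included, set-6 rose and 2 fell (12.5% and 25%). Beside these stand 15.3% and 15.2% of all tested genes. The 2 falls were set-7 itself and set-9. set-9 (NCU08733), which encodes a SET domain protein, had 42.8, 38.7 and 27.9 CPM in wild type and 2.97, 2.59 and 3.75 CPM in ∆hH2Az;∆set-7 (log2 fold change -3.55, SE 0.258, edgeR adjusted p = 1.24e-05), with means of 3.60 CPM in ∆hH2Az and 38.7 CPM in ∆set-7. set-6 (NCU09495), 1.0 kb from the end of chromosome II, had 9.87, 9.24 and 5.37 CPM in wild type and 33.5, 31.9 and 53.4 CPM in ∆hH2Az;∆set-7 (log2 fold change 2.28, SE 0.468, edgeR adjusted p = 0.00478). Its mean was 58.5 CPM in ∆set-7 and 3.33 CPM in ∆hH2Az. Of 18 genes of heterochromatin and DNA methylation, 0 rose and 2 fell (11.1%). The falls were dim-9 by 0.82 and qde-3 by 0.91, the latter lost in 5 of the 6 refits that left out 1 library. Of 35 genes of chromatin remodelling and acetylation, 9 rose (25.7%) and 3 fell (8.57%), with a median of 0.26. That median was 0.37 in the libraries tagged 920 and -0.19 between the replicate 3 libraries. nst-7, of the sirtuin deacetylase family, rose by 2.41 and arp-8, an actin-related protein of a remodelling complex, fell by 1.12. Without wild-type replicate 1, wild-type replicate 2 or ∆hH2Az;∆set-7 replicate 2 the list had 3 rises, and without replicate 3 of either strain 5. Its falls numbered 1 or 2 when 1 library was left out.

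Of 6 genes of carotenoid synthesis 3 rose (50%) and 0 fell, beside 15.3% and 15.2% of all tested genes. cao-2 (NCU11424), a carotenoid-cleaving oxygenase gene 3.7 kb from the end of chromosome VII, had 26.6, 24.3 and 27.5 CPM in wild type and 229.5, 175.1 and 162.0 CPM in ∆hH2Az;∆set-7 (log2 fold change 2.85, SE 0.253, edgeR adjusted p = 2.73e-05). It was above its means of 78.4 CPM in ∆hH2Az and 61.4 CPM in ∆set-7 (edgeR adjusted p = 0.0282 and 0.000924). al-1 (NCU00552), the phytoene desaturase, had 55.5, 73.4 and 111.6 CPM in wild type and 218.7, 185.5 and 218.4 CPM in ∆hH2Az;∆set-7 (log2 fold change 1.37, SE 0.331, edgeR adjusted p = 0.01), and al-3, the geranylgeranyl diphosphate synthase, rose from a mean of 36.9 to 90.8 CPM (edgeR adjusted p = 0.00157).

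Of 26 clock and light genes 6 rose and 3 fell (23.1% rose, beside 15.3% of all tested genes). bli-4 (NCU08699), named for its induction by blue light, had 17.2, 14.4 and 12.4 CPM in wild type and 252.0, 157.6 and 126.6 CPM in ∆hH2Az;∆set-7 (log2 fold change 3.61, SE 0.425, edgeR adjusted p = 0.000238). sub-1, a light-induced transcription factor gene, rose by 1.26 and cry, which encodes a cryptochrome, by 1.71, a call lost without wild-type replicate 1 or 2. nop-1, an opsin gene, rose by 1.57, and its call was lost in 5 of the 6 refits that left out 1 library and under a replicate block. The clock-controlled gene ccg-1 fell from 120.5, 119.9 and 131.8 CPM to 52.6, 43.2 and 55.2 CPM (edgeR adjusted p = 0.000165), and ccg-16 fell by 1.19. ccg-14 fell by 1.94, with 13661, 7437 and 2251 CPM in wild type and 2031, 2283 and 1753 CPM in ∆hH2Az;∆set-7. Its call was kept only without wild-type replicate 3 among those 6 refits. Without wild-type replicate 1 or 2 the list had 2 rises, and without ∆hH2Az;∆set-7 replicate 1 it had 3.

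Genes of spore formation, which stand for cell types a mycelial culture could also hold, had 2 rises and 1 fall among 17 tested (11.8% and 5.88%, median 0.11). Over all tested genes the shares were 15.3% and 15.2%. con-8 (NCU09235), expressed during conidiation, had 66.4, 45.8 and 30.7 CPM in wild type and 404.3, 318.1 and 1012 CPM in ∆hH2Az;∆set-7 (log2 fold change 3.60, SE 0.608, edgeR adjusted p = 0.00229). con-6 had 0.675, 0.539 and 0.0577 CPM in wild type and 10.4, 6.77 and 1.46 CPM in ∆hH2Az;∆set-7 (log2 fold change 3.93, SE 1.13, edgeR adjusted p = 0.0219), a call lost without ∆hH2Az;∆set-7 replicate 1 or wild-type replicate 2 or 3. ada-5 fell by 0.86, lost in 4 of the 6 refits. Of 5 tested genes of mating, fmf-1, needed for fertility, fell by 2.26.

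Genes of plant cell wall degradation moved in both directions, 11 up and 14 down of 81 tested. These were 13.6% and 17.3%, beside 15.3% and 15.2% of all tested genes. gh5-1 (NCU00762), a glycoside hydrolase of a cellulase family, had 0.759, 1.16 and 0.404 CPM in wild type and 26.1, 24.8 and 47.7 CPM in ∆hH2Az;∆set-7 (log2 fold change 5.43, SE 0.412, edgeR adjusted p = 1.37e-05). gh61-5 (NCU08760), 30.4 kb from the end of chromosome III, had 2.95, 3.46 and 1.91 CPM in wild type and 28.7, 26.1 and 61.8 CPM in ∆hH2Az;∆set-7 (log2 fold change 3.81, SE 0.35, edgeR adjusted p = 3.92e-05). It averaged 5.62 CPM in ∆hH2Az and 4.37 CPM in ∆set-7, and ∆hH2Az;∆set-7 was above both (edgeR adjusted p = 0.00126 and 0.000133). gh61-9 (NCU05969), of the same gene family of polysaccharide oxygenases, had 89.8, 106.4 and 75.2 CPM in wild type and 10.3, 11.8 and 14.8 CPM in ∆hH2Az;∆set-7 (log2 fold change -2.88, SE 0.221, edgeR adjusted p = 1.37e-05). Without wild-type replicate 1 the list had 7 rises and 9 falls, and without wild-type replicate 2 it had 6 and 9. Of 28 genes of the fungus's own wall and surface 3 rose (10.7%) and 4 fell (14.3%). Among them gel-1 rose by 1.91, and ncw-1, acw-9, acw-5 and acw-6 fell by 1.81, 1.73, 1.71 and 1.46. Without wild-type replicate 1 or 2 or ∆hH2Az;∆set-7 replicate 3, 1 rise of this list passed.

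Of 31 DNA repair genes 5 rose (16.1%) and 8 fell (25.8%), beside 15.3% and 15.2% of all tested genes. mus-18 (NCU08850), a repair endonuclease gene, had 7.42, 6.54 and 14.0 CPM in wild type and 80.8, 68.2 and 24.7 CPM in ∆hH2Az;∆set-7 (log2 fold change 2.63, SE 0.505, edgeR adjusted p = 0.00366). phr, the photolyase, rose by 1.06, lost in 4 of the 6 refits that left out 1 library. mus-52 (NCU00077), which encodes a Ku protein of end joining, had 23.5, 22.0 and 27.5 CPM in wild type and 6.07, 7.67 and 7.50 CPM in ∆hH2Az;∆set-7. It fell by 1.78 (SE 0.189, edgeR adjusted p = 7.09e-05), and it averaged 8.94 CPM in ∆hH2Az and 24.0 CPM in ∆set-7. The labels name no change at mus-52, so a strain difference at that locus and a change in its expression cannot be told apart. The list had 5 falls without any 1 wild-type library or ∆hH2Az;∆set-7 replicate 2, and 3 without ∆hH2Az;∆set-7 replicate 1. mus-51 and his-3 did not pass, and the 3 genes of the A mating type locus had at most 0.0695 CPM in any of the 6 libraries.

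Among the remaining lists, nitrogen metabolism had 2 rises and 1 fall of 11 (18.2% and 9.09%). Beside these and the shares below stand 15.3% and 15.2% of all tested genes. gdh-1 (NCU00461), a glutamate dehydrogenase gene, had 43.1, 39.1 and 68.5 CPM in wild type and 214.1, 233.3 and 456.4 CPM in ∆hH2Az;∆set-7 (log2 fold change 2.58, SE 0.403, edgeR adjusted p = 0.00104), and nit-10, a nitrate transporter gene, fell by 1.52, lost in 4 of the 6 refits. Of 25 genes of signalling 4 rose (16%) and 1 fell (4%). Among them gna-2, a G protein subunit gene, rose by 1.17, and gpr-6, a receptor gene, fell by 2.32. Each refit that left out 1 library gave 1 or 2 rises in this list, and gna-2 and gpr-6 kept their calls in all of them. Of 17 genes of the citric acid cycle 3 rose (17.6%) and 1 fell (5.88%). There were 0 rises without wild-type replicate 1 or ∆hH2Az;∆set-7 replicate 1 or 3 and 1 in the other refits of that kind. Of 58 serine-threonine kinase genes with an stk symbol 7 rose (12.1%) and 3 fell (5.17%), led by stk-42 (1.71) and stk-44 (-3.42). In this list 1 rose without wild-type replicate 2, 3 without wild-type replicate 1 or ∆hH2Az;∆set-7 replicate 2 and 4 without ∆hH2Az;∆set-7 replicate 1. The vacuolar ATPase had 2 rises and 1 fall of 14 (14.3% and 7.14%), and the quinic acid cluster 1 and 1 of 7 (14.3% each). The polyketide and peptide synthases had 0 and 1 of 6 (0% and 16.7%). Cell fusion genes (17 tested) had log2 fold changes from -0.41 to 0.79 and heterokaryon incompatibility genes (6 tested) from -0.90 to 0.11, and no member of either was called in the 12-library edgeR fit. DESeq2 called 1 gene in each list, and edgeR in the libraries tagged 920 called 5 cell fusion genes, 4 of them higher, and 4 heterokaryon incompatibility genes, all lower.

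Rises and falls were spread over the chromosomes and over expression levels. The share called higher ranged from 14.4% on chromosome II to 16.5% on chromosome III, and the share called lower from 13.8% on chromosome I to 17.7% on chromosome II. Among the 1675 genes of highest mean CPM, 14.5% rose and 20.3% fell. Genes with a symbol fell more often than they rose (17.8% against 12.8%), and genes known only by a locus identifier rose in 15.7% and fell in 14.8%. Of the tested non-coding RNA genes 15.8% rose and 4.95% fell, which were 16 and 5 genes. Where a called gene overlaps another, as hH2A, hH2B, hH4-2, his-6, trp-4, tim17, hsf-1, cry, con-6 and arp-8 do, its reads could in part be its neighbour's, and 265 of the rises and 349 of the falls overlap another gene.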

How the data were processed

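Poly(A) RNA of 12 Neurospora crassa cultures, 3 of each of 4 strains, was sequenced, and the authors deposited raw read counts per gene, made per the file headers with featureCounts 1.6.2 on the NC12 build, without strand being used in counting. The submitters' processing notes name Trim Galore, FastQC, BWA 0.7.15, SAMtools 1.3.1, HOMER 4.8 and deepTools 3.3.1, and which of them served the RNA libraries is not stated there. Reads of overlapping or antisense genes can therefore be assigned to either gene.

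The counts were fitted with edgeR 4.0.16 (R 4.3.3): TMM scaling, filterByExpr, 1 quasi-likelihood model over the 12 libraries with a coefficient per strain, 2-sided tests, and Benjamini-Hochberg adjustment over the 8372 genes tested, called at an adjusted p under 0.05. limma 3.58.1 and DESeq2 1.42.0 gave alternatives. The fit was checked on simulated counts in which replicate 3 was drawn like the other libraries. That check does not cover the gap between replicate 3 and the others in these strains. Names came from a RefSeq gene table of the same build, which matched 10397 of 10398 genes and gave 1118 symbols. Distances to the right chromosome ends were measured to the end of the last annotated gene.

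Named genes were the deleted genes and their machinery, the 12 largest rises and falls, up to 4 called genes per list and direction, the 3 longest runs of called neighbours each way, and a strain background list. The members and lists were chosen with earlier results of these data known. Intervals and floors (3 reads) cover counting error only. Library totals ran from 13581416 to 19720473 counts. The replicate numbers were not treated as pairs.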

Additional observations from a re-analysis of the deposited data

Results flagged for a closer look

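The flag fell on 3 of the named genes. In these the replicate 3 libraries and the libraries tagged 920 moved in opposite directions between ∆hH2Az;∆set-7 and wild type. This difference was not tested. Over all tested genes, 79.6% had the same sign between the replicate 3 libraries as in the 12-library fit, so the 3 are not a count over the genome. NCU09993 (crf1-1, swr-1 in the labels) had a log2 difference of -0.34 between the replicate 3 libraries and 0.66 in the libraries tagged 920. his-3 (NCU03139) had 0.45 and -0.44, and mus-51 (NCU08290) had -0.54 and 0.07. None of the 3 was called in the 12-library edgeR fit, while crf1-1 and his-3 were called in the fit of the libraries tagged 920, with log2 fold changes of 0.68 and -0.44.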

How the results depend on the processing

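Calls between ∆hH2Az;∆set-7 and wild type numbered 2551, between 1618 and 2332 when 1 library was left out (1618 without wild-type replicate 2), 4578 in the libraries tagged 920 and between 2182 and 2931 in the other alternatives. Those against ∆hH2Az numbered 121, between 62 and 473 when 1 library was left out, 292 with DESeq2, 77 with a mean of at least 5 CPM, 48 in the 6 libraries alone and 2478 in the libraries tagged 920. Those against ∆set-7 numbered 2486, between 1643 and 2691 when 1 library was left out, and 4797 in the libraries tagged 920. Within 200 kb of an end 25.4% of genes were called higher, and 33.3% within 100 kb. The log2 fold change of mus-51 turned from -0.15 to 0.08 in the libraries tagged 920, and lay between -0.23 and 0.01 when 1 library was left out. The cause was not tested. The count of calls within 50 kb of an end was an alternative chosen after seeing the data.

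Under a replicate block the 3 comparisons had 2627, 102 and 2629 calls. Deviations of same-numbered ∆hH2Az;∆set-7 and wild-type libraries from their group means correlated at -0.316, -0.144 and -0.376, so the numbers were not taken as pairs. The common dispersion was 0.102 over the 12 libraries and 0.0178 over the 8 tagged 920, and genes with few reads, such as those silent in wild type, were limited by depth.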
